A study of Mus musculus with 6 samples.

Results

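Transcripts of 9 complement genes, 6 that encode components (C1qa, C1qb, C1qc, C3, C4b and Cfb), 1 that encodes the regulator properdin (Cfp) and 2 that encode receptors (C3ar1 and C5ar1), were followed across the immune cells of mouse soleus muscle. They were taken by gene symbol, as 9 of the 31053 genes in the count files, and all 9 had unique molecular identifiers (UMIs, each a tag for 1 captured RNA molecule) in these data. CD45+ DAPI- cells were sorted from soleus muscles of male C57BL/6 mice that were old (20 to 22 months) or young (4 to 5 months), and 1 10x Genomics library was made for each age and treatment. Mice were ambulatory controls, had 14 days of hindlimb unloading (HU), or had 14 days of HU followed by 4 days of reload. The pools held 20 old and 10 young control mice, 10 old and 8 young HU mice, and 10 old and 10 young reload mice. A pool is 1 sample, so there was no replicate within an age and treatment, and the 2 control libraries came from another sequencing run, by their descriptions, than the HU and reload libraries. HU or reload against control therefore cannot be told apart from run, while reload and HU share a run by their descriptions. The number that opens the titles differs between control, HU and reload and is shared by old and young, so only old against young is free of it, and reload against HU cannot be told apart from whatever that number marks.

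Complement is a cascade of plasma proteins that marks microbes, debris and dying cells for removal. The classical pathway starts with C1q, a complex of 3 chains that binds antibody or damaged surfaces and, through C1r and C1s, cleaves C4 and C2. The alternative pathway amplifies deposition of C3, the central component, through factor B and properdin. The fragments C3a and C5a, released by cleavage, draw and activate leukocytes through the receptors C3aR1 and C5aR1. Most plasma complement is made in the liver, but tissue macrophages are a known local source of C1q.

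The files held 15467 barcodes, of which 12220 were kept, and 2622 were macrophages, defined without any complement gene as cells with at least 1 UMI of both Csf1r and Adgre1 that passed no other gate, the monocyte gate included. There were 208 old and 348 young control macrophages, 215 old and 247 young HU macrophages, and 752 old and 852 young reload macrophages, with a median of 3935 to 8272 UMIs per cell by library. Of genes outside the gate, Cd68 had a UMI in 89.5%, Fcgr1 in 48.1% and Mertk in 18.8% of macrophages, against 4.0%, 0.2% and 0.1% of T cells. In monocytes the shares were 93.2%, 70.2% and 8.0%, and in dendritic cells 82.3%, 12.6% and 1.3%, so Cd68 and Fcgr1 did not set macrophages apart from monocytes. Of all kept cells, 4001 passed no gate and 634 passed several, and these were given no class. The control libraries shared 41 barcodes with each other and other pairs of libraries shared 5 to 17, but at most 1 barcode of macrophages was shared by any pair.

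The 3 C1q genes lie side by side on mouse chromosome 4, within 18.7 kb (GRCm38, GENCODE vM21, 136880129 to 136898803, all on the minus strand). C3 lies on chromosome 17 (57203970 to 57228136), as do Cfb (34856374 to 34862518) and C4b (34728380 to 34743882) in the histocompatibility region. Cfp is on chromosome X (20925454 to 20931555), C3ar1 on chromosome 6 (122847138 to 122856161) and C5ar1 on chromosome 7 (16246743 to 16259540). RefSeq promoter windows, 250 bases before to 50 bases after a start, were matched for 6 of the 9 genes. The windows of C1qb and C1qc are shown because these 2 genes had nearly the same pattern over cell classes, and that of C3 because its pattern differed. Capitals mark GAGGAA on either strand in the C1q windows, a core that ETS factors such as PU.1 can bind, and TTGCNNAA in the C3 window, a form that C/EBP factors can bind.
C1qb (chr4:136886151-136886450, minus strand): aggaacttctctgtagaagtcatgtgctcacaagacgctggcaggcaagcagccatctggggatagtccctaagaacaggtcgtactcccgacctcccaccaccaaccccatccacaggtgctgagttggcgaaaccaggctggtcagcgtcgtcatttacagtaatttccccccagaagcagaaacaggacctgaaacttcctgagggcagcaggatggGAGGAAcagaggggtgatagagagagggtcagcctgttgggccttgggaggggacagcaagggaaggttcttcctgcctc
C1qc (chr4:136892865-136893164, minus strand): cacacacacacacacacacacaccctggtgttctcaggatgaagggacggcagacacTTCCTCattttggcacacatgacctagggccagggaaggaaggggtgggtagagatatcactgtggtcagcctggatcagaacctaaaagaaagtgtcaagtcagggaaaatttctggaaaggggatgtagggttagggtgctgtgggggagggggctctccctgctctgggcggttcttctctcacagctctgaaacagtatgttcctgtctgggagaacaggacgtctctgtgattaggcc
C3 (chr17:57228087-57228386, minus strand): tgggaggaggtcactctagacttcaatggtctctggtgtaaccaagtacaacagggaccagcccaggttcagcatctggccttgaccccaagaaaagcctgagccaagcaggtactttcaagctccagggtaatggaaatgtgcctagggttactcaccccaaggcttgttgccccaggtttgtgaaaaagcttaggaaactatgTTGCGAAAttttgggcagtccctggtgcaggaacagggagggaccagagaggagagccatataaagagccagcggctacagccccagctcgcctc
GAGGAA matched at position -30 of C1qb and, on the opposite strand, at -193 of C1qc, counted from the start base, and 28.3% of all 32851 windows held it. TTGCNNAA matched at -45 of C3, as TTGCGAAA, and 10.8% of all windows held it. These matches describe the letters and say nothing of binding.

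The question of which cells carried the transcripts was addressed first. Levels are given as CPM, the UMIs of a gene per 1000000 UMIs of all genes, summed over the cells of a class in a library. C1qa, C1qb, C1qc, C4b, Cfp, C3ar1 and C5ar1 were higher and C3 was lower in macrophages than in the sum of all other kept cells in each of the 6 libraries, and Cfb did not differ beyond the spread. The mean difference in log2(CPM + 1) was 2.01 ± 0.51 for C1qa, 1.93 ± 0.52 for C1qb, 1.96 ± 0.54 for C1qc, 1.68 ± 0.50 for C3ar1, 1.45 ± 0.57 for C4b, 1.22 ± 0.38 for C5ar1 and 0.77 ± 0.42 for Cfp (SD, 6 libraries). It was -1.30 ± 0.55 for C3 and -0.13 ± 0.54 for Cfb. An exact sign-flip permutation test over the 6 libraries, two-sided, gave p = 0.03125 for each of the 8 genes other than Cfb, the smallest p this design allows, and 0.0352 after Benjamini-Hochberg adjustment over the 9 genes. For Cfb the exact p was 0.594. With monocytes counted with the macrophages, C3 changed sign (0.69, exact p adjusted to 0.1875), as did Cfb (1.14, exact p adjusted to 0.0703). The ranges of macrophages and other cells did not overlap for C1qa (2139 to 4899 CPM against 411 to 1145 CPM), C1qb, C1qc, C3ar1 and C5ar1. The share of all genes that differed in these ways between macrophages and other cells was not counted. Whether these genes differ more often than others therefore cannot be said.

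**Figure D1:**
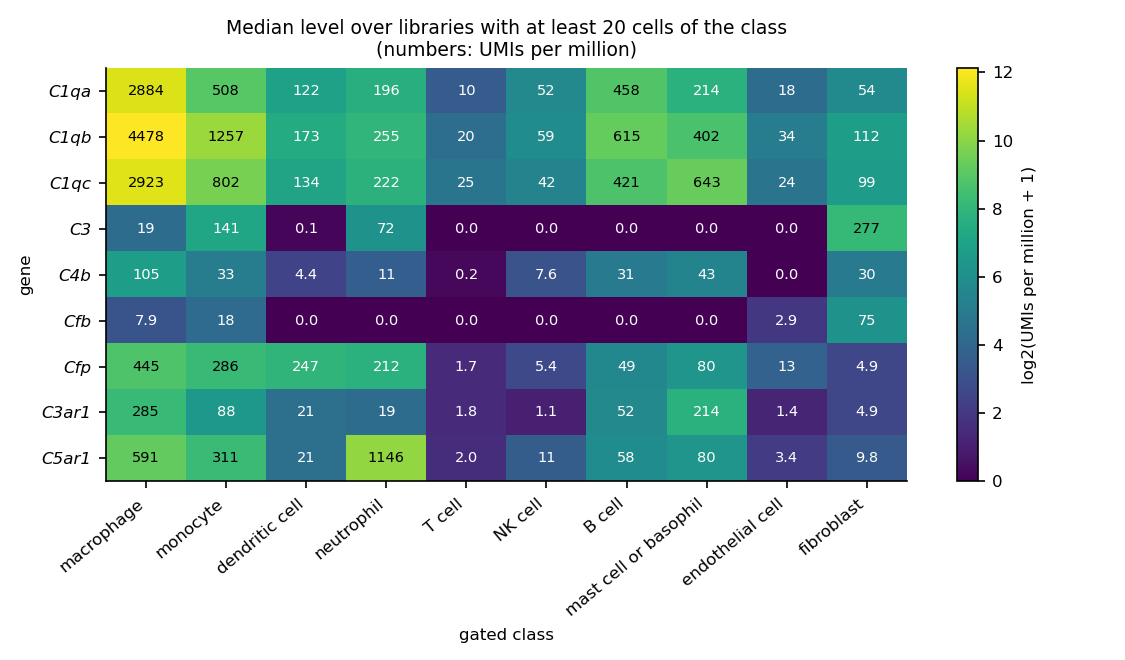
Median level of the 9 genes in each gated class, in CPM (numbers) and on a log2 colour scale, over the libraries that held at least 20 cells of the class. Macrophages had the highest medians of the C1q genes (2884, 4478 and 2923), fibroblasts that of C3 (277) and neutrophils that of C5ar1 (1146).

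C1q transcripts were found in most macrophages. To compare classes at the same depth, each cell with at least 2000 UMIs was thinned to 2000, and 80 of 2622 macrophages and 202 of 1112 T cells were left out as shallower. After thinning, C1qb had a UMI in 89.0% of macrophages (exact 95% interval 87.7 to 90.2), C1qc in 84.6% and C1qa in 83.5%. In T cells, set beside them as a background level, the shares were 1.6% (0.9 to 2.7), 1.8% and 1.0%. Before thinning, C1qb had a UMI in 90.4% of macrophages, with a median depth of 7166 UMIs over those counted, and in 2.8% of T cells, with a median depth of 3685. All 3 chains were found together in 80.9% of thinned macrophages, and no chain in 10.1%. These shares were 0.66% and 97.0% in T cells and 9.2% and 85.0% in B cells, so T cells gave the lower of these 2 levels. Intervals cover counting error only.

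Monocyte-gated cells were defined by Ly6c2 and Plac8 with at least 1 of Csf1r, Chil3 and F13a1. They held 8.9% to 11.3% of all C1q UMIs. Macrophages had 97048 UMIs of C1qb and monocytes 18519, and cells given no class held part of the rest. In CPM, monocytes were above B cells for each chain in only 2 of the 4 libraries with at least 20 cells of both. B cells had 371 to 477 CPM of C1qa in 4 libraries, and mast cells or basophils 14.7 to 603 CPM in 3 libraries. C1qa stood at 234 and 221 CPM in old and young control monocytes, at 508 CPM in old HU monocytes, and at 906 and 1916 CPM in old and young reload monocytes. The young HU library held 3 monocytes and gave no value. A few cells carried the control values: 90.4% of the C1q UMIs lay in 19 of 186 old control monocytes and 99.2% in 6 of 56 young control monocytes. The median monocyte had no C1q UMI in each of these libraries but young reload, where the median was 31 UMIs. Of the monocyte-gated cells, 54.5% in old reload and 71.5% in young reload also carried Csf1r and Adgre1, against 59.1% in old control and 51.8% in young control. A split chosen after the values were seen gave, in monocytes without both genes, 435 CPM of C1qa in old reload and 702 CPM in young reload, against 455 CPM in old HU (63 UMIs in 23 cells), 73.1 CPM in old control and 3.90 CPM in young control, so that old HU was as high as old reload. C1q in B cells was in few cells: 99.1% of the C1q UMIs of all B cells lay in 34 of 338 cells, and 86.4% of B cells had none.

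In macrophages, the C1q genes differed between old and young above all in HU. C1qa, the A chain of C1q, had 3108, 2139 and 2756 CPM in old control, HU and reload macrophages, against 2455, 4899 and 3012 CPM in young macrophages. C1qb, the B chain, had 4291, 4047 and 4665 CPM in old macrophages, against 3622, 6974 and 5051 CPM in young macrophages. C1qc, the C chain, had 3322, 3166 and 2680 CPM in old macrophages, against 2467, 6192 and 2623 CPM in young macrophages. The young HU library was thus the highest of the 6 for each chain, and the other 5 libraries lay within 1.5-fold of each other for C1qa, C1qb and C1qc. In young HU, 27.5% of barcodes had over 10% mitochondrial UMIs, against 9.60% in old HU and 33.3% in young reload. Its macrophages were the shallowest, with a median of 3935 UMIs against 5058 in old HU. Ptprc, which encodes CD45, had a UMI in 37.2% of them, against 57.7% in old HU. Endothelial cells made up 17.7% of young and 8.30% of old HU kept cells. The part of these differences in the C1q values was not tested.

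A difference between libraries was called at 1.5-fold or more with at least 20 UMIs in the pair, a rule of size with no test, since each group is 1 library. In HU, all 3 chains were lower in old than in young macrophages, by a log2 ratio of -1.20 for C1qa (exact 95% counting interval -1.26 to -1.13), -0.79 for C1qb and -0.97 for C1qc. Of the 7147 genes measured in that pair, 38.9% passed the rule, 15.8% higher and 23.1% lower in old, with a median log2 ratio of -0.14. In control macrophages the ratios of old over young were 0.34, 0.24 and 0.43, and in reload macrophages -0.13, -0.11 and 0.03, and none passed the rule. Scaled by cells in place of UMIs, the HU ratios were -0.80, -0.39 and -0.57, so C1qa alone passed, and the control ratios changed sign, to -0.18, -0.28 and -0.09.

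Per UMI, C1qc was lower at reload than in HU in young macrophages, by more than its partners. The log2 ratio of reload over HU was -1.24 for C1qc, -0.70 for C1qa and -0.47 for C1qb in young macrophages, and -0.24, 0.37 and 0.20 in old macrophages. Scaled by cells, the young ratios were -0.23 for C1qc, 0.30 for C1qa and 0.54 for C1qb, none past 1.5-fold, so the direction for C1qa and C1qb depended on the scaling. Of all genes measured, 52.6% passed the rule in the young pair (26.0% higher, 26.6% lower) and 38.1% in the old pair (23.4% higher, 14.7% lower). The UMIs of C1qc per UMI of C1qa were 0.97 in old reload against 1.48 in old HU macrophages, and 0.87 in young reload against 1.26 in young HU macrophages. In control macrophages this ratio was 1.07 in old and 1.005 in young. Such ratios compare libraries and do not give the ratio of the chains in the protein.

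C1q was higher in macrophages of resident type, a name used for cells with at least 2 of Lyve1, Folr2, Cd163 and Timd4, than in those of recruited type, with Ccr2 and none of these 4. C1qa had 4505, 2666 and 3916 CPM in old control, HU and reload macrophages of resident type, against 1659, 1003 and 2263 CPM in those of recruited type. In young control and reload it had 2822 and 3868 CPM in the resident type, against 1707 and 2350 CPM in the recruited type. The resident type was higher in each of the 5 libraries with at least 20 cells of both types, by a log2 ratio of 0.72 to 1.44 for C1qa, 0.26 to 0.99 for C1qb and 0.82 to 1.66 for C1qc. The young HU library held 11 cells of recruited type and was not compared. The resident type made up 55.8% of old and 65.2% of young HU macrophages, and 20.1% of old and 20.4% of young reload macrophages. Within the resident type, C1qa was still lower in old than in young HU macrophages (2666 against 6254 CPM, log2 ratio -1.23), and in control it was higher in old (4505 against 2822 CPM, 0.67).

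**Figure D2:**
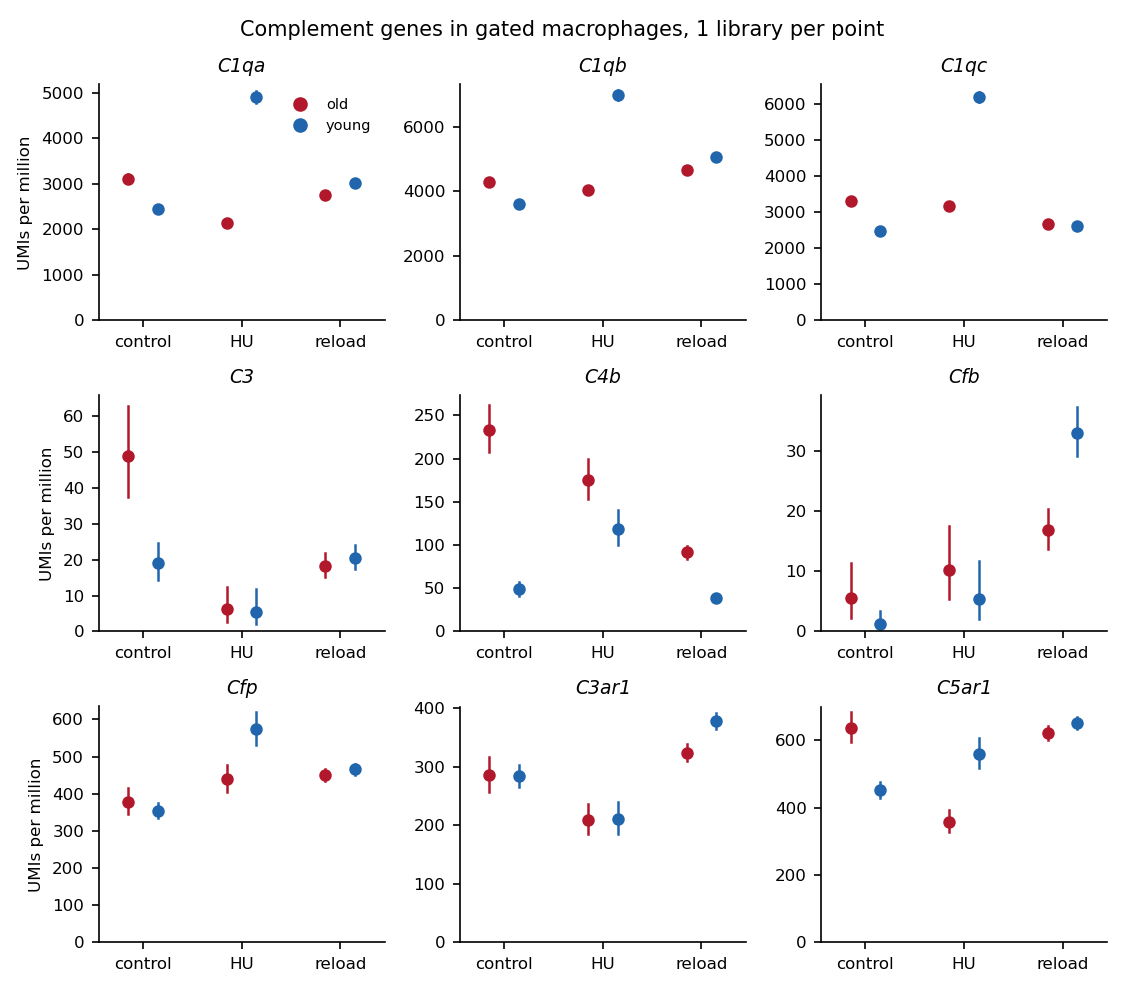
Level of each gene in gated macrophages in CPM, with exact 95% Poisson intervals (counting error only), old left of young in control, HU and reload, 1 library per point. The young HU library is highest for the 3 C1q genes, and old lies above young for C4b at each treatment (234 against 48.6, 175 against 119, and 91.6 against 38.5).

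C4b, which encodes complement C4 and carries the classical pathway on to C3, was the member that was higher in old than in young macrophages at every treatment. It had 234, 175 and 91.6 CPM in old control, HU and reload macrophages, against 48.6, 119 and 38.5 CPM in young macrophages. The ranges overlap, since the young HU value lies above the old reload value, and 6.64% of all genes had ranges that did not. Old over young gave a log2 ratio of 2.27 in control (1.98 to 2.56), 0.56 in HU (0.24 to 0.88) and 1.25 in reload (1.05 to 1.46), so that control and reload passed the rule of size. By this rule 23.2% of genes passed in control (13.5% higher in old) and 12.5% in reload (7.66% higher in old). Of the 8956 genes in the fit below, 14.5% were higher in old at all 3 treatments.

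Age across treatments was tested on the 6 macrophage sums with edgeR's quasi-likelihood test, with treatment in the model and 2 residual degrees of freedom. The fold change of C4b was 1.38 ± 0.29 on the log2 scale (SE), with an unadjusted p of 0.00248, the 13th smallest of all genes, and a Benjamini-Hochberg adjusted p of 0.946 in edgeR. No gene passed an adjusted p of 0.05 in edgeR (0 of 8956, 0.0%), 338 genes (3.77%) had an unadjusted p under 0.05, and DESeq2 called 6 genes, with C4b at an adjusted p of 0.132. Over the alternatives, the adjusted p of C4b ran between 5.93e-06 and 0.981, and it passed without the old HU library (1.70, edgeR adjusted p = 0.0453) and with no filter on low counts (1.36, adjusted p = 5.93e-06). With no filter on low counts, 85 of 15993 genes passed for age. The fold change of C4b was positive in each alternative, between 0.94 and 1.70. Gene C4a, a near-identical neighbour of C4b in the mouse, was not in the count files under that symbol. Reads of the pair may have been split, dropped or counted as C4b, which could not be checked.

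Within macrophages, C4b was found mainly in the resident type. It had 474, 294 and 331 CPM in old control, HU and reload macrophages of resident type, against 121, 184 and 121 CPM in young ones. In the recruited type it had 20.4, 11.7 and 34.7 CPM in old control, HU and reload, from 6, 2 and 92 UMIs. In the recruited type of young mice it had 0 UMIs in control and 27 UMIs, or 9.33 CPM, at reload. The resident type was at least 17.1-fold higher in young control, with the recruited type set to 3 UMIs, and the log2 ratio was 4.54, 4.65, 3.25 and 3.69 in old control, old HU, old reload and young reload. The resident type thus held 94.6% of old and 95.3% of young control macrophage C4b UMIs, 94.2% and 98.5% in HU, and 70.3% and 73.0% at reload.

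Old stayed above young for C4b within the resident type, by a log2 ratio of 1.97 in control, 0.67 in HU and 1.46 in reload. The resident type made up 48.1% of old and 37.4% of young control macrophages, and the summed level of its 4 markers was 1141 CPM in old and 541 CPM in young control macrophages. At reload, C4b was lower than in HU at both ages, 91.6 against 175 CPM in old macrophages (log2 ratio -0.94) and 38.5 against 119 CPM in young macrophages (-1.63). The 2 reload libraries lay below the 2 HU libraries, as they did for 29.0% of all genes. In edgeR the fold change of reload over HU was -1.28 ± 0.35 (SE), with an adjusted p of 0.0826, and leaving out old HU (-1.71, adjusted p = 0.00422) or young control (-1.27, adjusted p = 0.0381) took it past the threshold, while without young HU it was -0.76 (adjusted p = 0.261). Scaled by cells, the ratio was -0.46 in old and -0.62 in young macrophages. Within the resident type alone the ratio was 0.17 in old and -0.61 in young macrophages, and in old macrophages of recruited type, with 92 and 2 UMIs, it was 1.56. The share of resident type was lower at reload than in HU, as given above, and its part in the result was not tested.

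**Figure D3:**
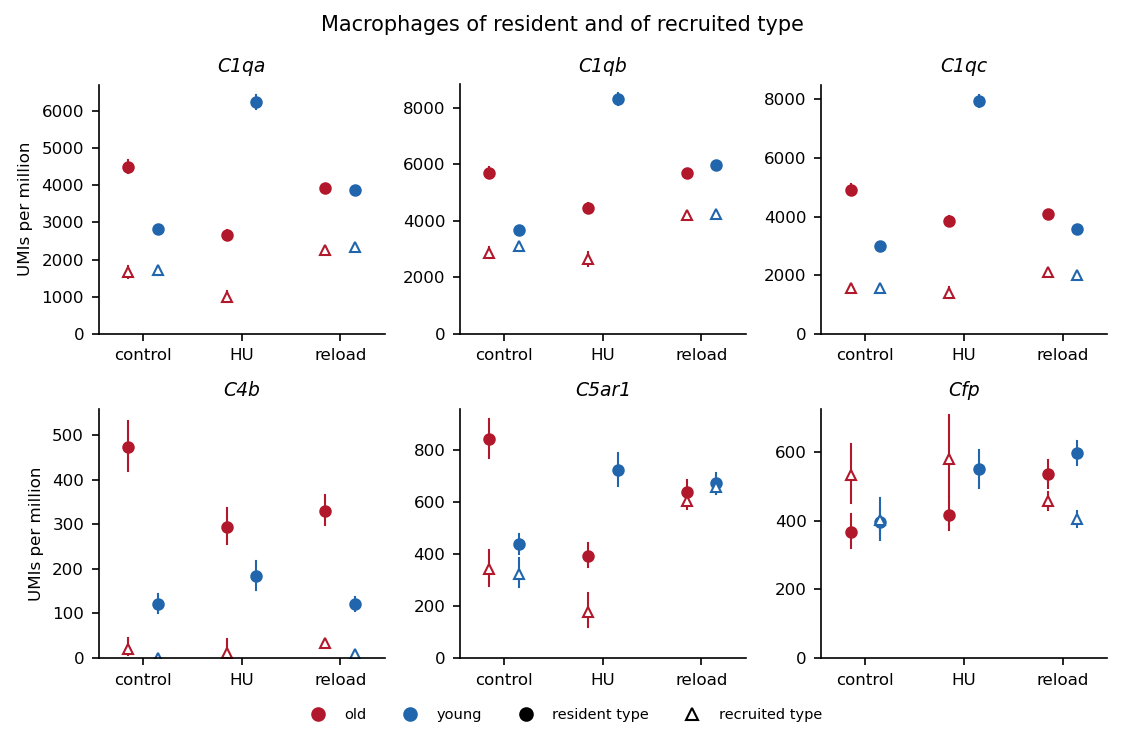
Level of 6 genes, in CPM with exact 95% Poisson intervals, in macrophages of resident type (filled circles) and recruited type (open triangles), old left of young, 1 library per point and subsets of at least 20 cells. C4b lies between 0 and 34.7 in the recruited type and between 121 and 474 in the resident type, while C1q is present in both types at a higher level in the resident type.

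Outside macrophages, C4b was higher in old than in young cells of some classes. The share of all genes that differed was not counted in these classes. In monocytes it had 26.5 CPM in old control, from 55 UMIs, against 10.3 CPM in young control, from 6 UMIs, a log2 ratio of 1.36 (0.14 to 2.86), while at reload it had 37.5 CPM in old and 32.7 CPM in young (0.20, -0.22 to 0.60). In neutrophils it had 65.6 and 137 CPM in old control and HU, against 9.44 and 7.49 CPM in young control and HU, from 51 and 36 against 4 and 1 UMIs. In dendritic cells at reload it had 11.5 CPM in old, from 22 UMIs, against 1.32 CPM in young, from 5 UMIs. In T cells, thinned to equal depth, 0.4% of cells had a C4b UMI, against 10.9% of macrophages and 6.8% of neutrophils. Only 292 of 991 neutrophils were deep enough for thinning. Of these, 84.2% had no C1q chain after thinning, against 90.6% of all neutrophils before it. C1qa, which macrophages carry, stood at 223 and 451 CPM in the same old control and HU neutrophils, against 170 and 232 CPM in young ones, and its part in the C4b values was not tested.

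C3, the central component, was carried mainly by cells outside the macrophage gate. Of its 2972 UMIs, 43.1% were in monocytes, 13.6% in macrophages and 8.3% in fibroblasts. Monocytes that also carried Csf1r and Adgre1 held 359, 44, 177 and 182 C3 UMIs in old control, young control, old reload and young reload. Monocytes without both held 188, 60, 158 and 68 in the same order. After thinning, C3 had a UMI in 33.3% of fibroblasts (exact 95% interval 23.9 to 43.9), 22.1% of monocytes (19.4 to 24.9), 13% of neutrophils and 3.7% of macrophages (3.0 to 4.5), against 0.2% of T cells. Unthinned, the shares were 40.2%, 52.6%, 11.2%, 9.95% and 0.2%. Fibroblasts, which the CD45 gate should remove, had 186 CPM in old HU and 367 CPM in young HU, and no other library held 20 of them. Monocytes had 263, 141 and 140 CPM in old control, HU and reload, against 179 and 69.4 CPM in young control and reload. Monocyte C3 was higher in old than in young at reload, by a log2 ratio of 1.01 (0.77 to 1.25), while monocyte Cfb was lower. The share of all genes that differed between old and young reload monocytes was not counted.

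Macrophage C3 was low and differed between libraries. It had 48.9, 6.28 and 18.3 CPM in old control, HU and reload macrophages, from 62, 8 and 113 UMIs, against 19.0, 5.41 and 20.5 CPM in young macrophages, from 58, 6 and 158 UMIs. Old control was the highest library and both HU libraries were the lowest. Old over young gave a log2 ratio of 1.36 in control (0.82 to 1.90) and -0.17 in reload, and HU held too few UMIs for a call. Within the resident type the control ratio was -0.13 (-0.997 to 0.69), with 19 and 41 UMIs. Reload over HU gave 1.54 in old (0.51 to 2.79) and 1.93 in young macrophages (0.77 to 3.39). Across ages the fold change in edgeR was 1.78 ± 0.51 (SE), with an adjusted p of 0.0897. With 1 library left out, the adjusted p lay between 0.0405 (without young control) and 0.489 (without young reload, 1.19). The summed level of 6 monocyte markers was 1132 and 499 CPM in old and young control macrophages, 982 and 1598 CPM in HU and 1190 and 1114 CPM at reload, with Ly6c2, Plac8 and Chil3 among those at 0 in young HU. The part of monocyte transcripts in the C3 values was not tested.

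The alternative pathway genes had different sources. Cfb, which encodes factor B, the protease of the C3 convertase, had 1458 UMIs, of which 53.4% were in monocytes and 26.6% in macrophages. Cells in both gates counted as monocytes. Monocytes that also carried Csf1r and Adgre1 held 20, 2, 114 and 492 Cfb UMIs in old control, young control, old reload and young reload. Monocytes without both held 7, 3, 29 and 107 in the same order. After thinning, Cfb had a UMI in 11.8% of monocytes (9.8 to 14.1), 9.7% of fibroblasts (4.5 to 17.6) and 3.1% of macrophages (2.4 to 3.8). No T cell had one (0 of 910, which allows a share of up to 0.330%). Unthinned, the shares were 29.3%, 19.6%, 8.9% and 0.0%. Monocytes had 13.01, 17.7 and 59.6 CPM in old control, HU and reload, against 8.62 and 166 CPM in young control and reload. Reload monocytes were thus lower in old than in young, by a log2 ratio of -1.48 (-1.75 to -1.21), with no share of all genes counted in monocytes.

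Macrophage Cfb followed the same order at lower levels. It had 5.52, 10.2 and 16.8 CPM in old control, HU and reload macrophages, from 7, 13 and 104 UMIs, against 1.31, 5.41 and 33.0 CPM in young macrophages, from 4, 6 and 254 UMIs. At reload, old was lower than young by a log2 ratio of -0.97 (-1.32 to -0.64), among 4.79% of genes that were lower by the rule of size. In the recruited type it had 10.9 CPM in old against 30.8 CPM in young (-1.49, -2.15 to -0.87), and in the resident type 34.1 against 38.5 CPM (-0.18, -0.77 to 0.40), and the difference between the types was not tested. Reload over HU gave 2.61 in young (1.47 to 4.07) and 0.72 in old macrophages (-0.12 to 1.68), where the counts were 104 and 13 UMIs and the ratio after thinning was -0.0066. Across ages the fold change was 1.63 ± 0.61 (SE) with an edgeR adjusted p of 0.148. It was 2.57 without old HU (adjusted p = 0.0310), 2.95 without old reload (0.0825), 0.87 without young HU (0.525) and 0.52 without young reload (0.806).

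Cfp encodes properdin, which stabilises that convertase, and it was spread over the myeloid classes. Macrophages were the highest class in each library, with 379, 440 and 450 CPM in old control, HU and reload, against 354, 574 and 466 CPM in young. Young HU was the highest library and young control the lowest, and no comparison of old with young or of reload with HU passed the rule of size. Dendritic cells had 238 to 334 CPM, monocytes 157 to 364 CPM and neutrophils 190 to 255 CPM. After thinning, Cfp had a UMI in 49.1% of macrophages, 39.3% of monocytes, 36.3% of dendritic cells and 30.8% of neutrophils, against 0.7% of T cells. The neutrophil share rests on 292 of 991 cells. In edgeR its fold change was -0.08 ± 0.17 for age (adjusted p = 0.963) and -0.12 ± 0.20 for reload over HU (adjusted p = 0.743).

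**Figure D4:**
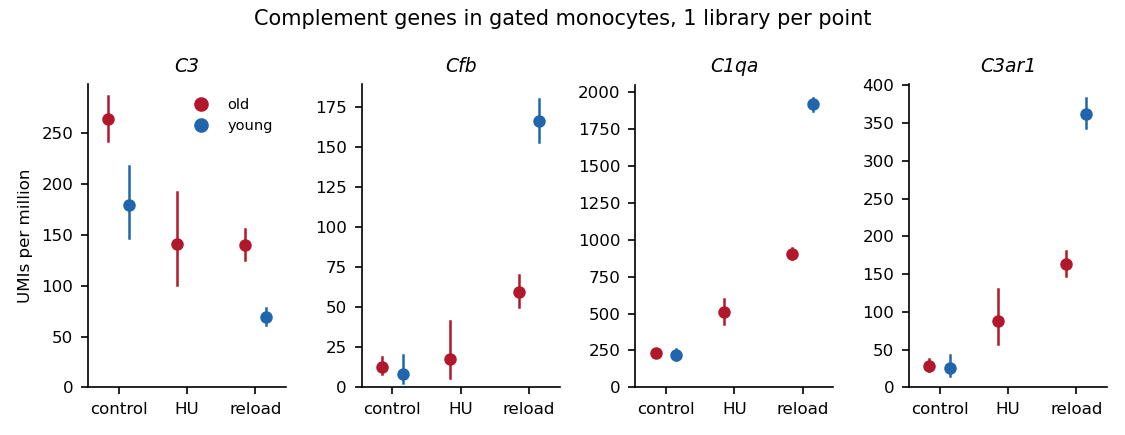
Level of C3, Cfb, C1qa and C3ar1 in monocyte-gated cells in CPM, with exact 95% Poisson intervals, old left of young, 1 library per point (young HU held 3 monocytes and is not drawn). At reload, old lies above young for C3 (140 against 69.4) and below young for Cfb (59.6 against 166), C1qa (906 against 1916) and C3ar1 (164 against 362). The share of all genes that differed in this pair was not counted.

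The receptors divided between macrophages and neutrophils. C5ar1, the receptor for C5a, was highest in neutrophils in each library, with 1178, 1426 and 1114 CPM in old control, HU and reload and 968, 719 and 1228 CPM in young. Macrophages came next, with 637, 359 and 622 CPM in old, against 453, 560 and 652 CPM in young. After thinning, C5ar1 had a UMI in 81.8% of neutrophils (76.9 to 86.1), 58.5% of macrophages (56.6 to 60.4) and 0.4% of T cells. Thinning left out 699 of 991 neutrophils as too shallow, and unthinned the shares were 76.8%, 82.4% and 0.6%. C3ar1, the receptor for C3a, had 286, 210 and 324 CPM in old control, HU and reload macrophages, against 284, 212 and 379 CPM in young. It had a UMI in 42.1% of thinned macrophages, 23.3% of monocytes and 22.4% of mast cells or basophils (11 of 49 cells, 11.8 to 36.6), against 0.3% of T cells and 2.4% of neutrophils.

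Both receptors were higher at reload than in HU macrophages at both ages, C5ar1 in young by less than the rule of size. C3ar1 in macrophages passed the rule of size, with a log2 ratio of 0.63 in old (0.44 to 0.82) and 0.84 in young (0.65 to 1.04), and the 2 reload libraries lay above the 2 HU libraries, as for 30.5% of genes. Its fold change in edgeR was 0.75 ± 0.21 (SE) with an adjusted p of 0.0897, between 0.0245 (without old HU) and 0.625 (without young reload) when 1 library was left out. C5ar1 gave 0.79 in old (0.65 to 0.94) and 0.22 in young (0.10 to 0.34), and an edgeR fold change of 0.51 ± 0.26 with an adjusted p of 0.253. Within the resident type the C5ar1 ratio was 0.70 in old (0.50 to 0.90) and -0.11 in young (-0.26 to 0.04). By age, C3ar1 did not pass the rule at any treatment, and C5ar1 was lower in old than in young HU macrophages (-0.64, -0.82 to -0.47), a ratio that was -0.24 when scaled by cells. In monocytes at reload, both receptors were lower in old than in young, by a log2 ratio of -1.15 (-1.31 to -0.98) for C3ar1 and -0.82 (-0.94 to -0.70) for C5ar1. The share of all genes past 1.5-fold was not counted in monocytes, so a shift of many genes between these libraries was not tested.

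**Figure D5:**
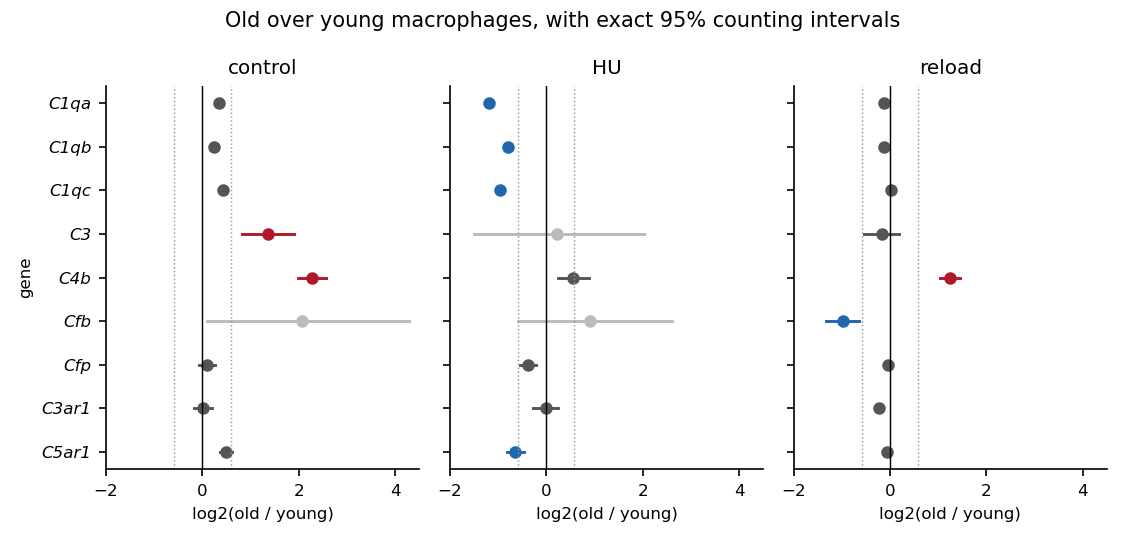
Log2 ratio of old over young macrophages for each gene in control, HU and reload, with exact 95% counting intervals. Dotted lines mark 1.5-fold, red marks genes called higher in old, blue lower, dark grey neither, and light grey fewer than 20 UMIs. C4b is right of 0 in each panel (2.27, 0.56 and 1.25), and the C1q genes are left of the dotted line in HU only.

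Over the 9 genes, the number past 1.5-fold for old over young was 2 of 8 measured in control, 4 of 7 in HU and 2 of 9 in reload, and for reload over HU 5 of 9 in old and 6 of 9 in young. These shares are to be read against 23.2%, 38.9%, 12.5%, 38.1% and 52.6% of all genes. In edgeR 0 of the 9 passed the test of reload over HU, where 4.46% of 8956 genes did (185 or 2.07% higher, 214 or 2.39% lower), and C1qc, C3, C4b, Cfb and C3ar1 had an unadjusted p under 0.05, as 28.4% of genes did. With no filter on low counts C3, C4b, Cfb and C3ar1 passed in edgeR, at adjusted p between 5.08e-05 and 0.0194. In that setting 1955 of 15993 genes passed. The fold change of C1qc was -1.18 without old HU and -0.22 without young HU. The count of 399 genes was itself 0 without either reload library, 118 without young HU and 1842 without old HU. The median fold change of the 9 was -0.12 in that fit and -0.08 for age, against 0.01 and 0.01 over all genes tested.

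Against control, which was sequenced in another run, the values are given without a reading. HU over control gave a log2 ratio of 0.996 for C1qa, 0.94 for C1qb, 1.33 for C1qc, 1.29 for C4b and 0.70 for Cfp in young macrophages, and -1.82 for C3, where 52.7% of genes passed the rule (27.8% higher, 24.9% lower). In old macrophages it gave -2.96 for C3 and -0.83 for C5ar1, and 0.89 for Cfb from 13 and 7 UMIs, where 31.6% of genes passed the rule (9.97% higher, 21.7% lower). Reload over control gave 4.65 for Cfb in young macrophages (3.28 to 6.54), where 26.8% of genes passed (13.4% in each direction), and 1.61 for Cfb, -1.42 for C3 and -1.35 for C4b in old macrophages, where 25.0% passed (11.9% higher, 13.2% lower). Treatment and run cannot be told apart in these ratios.

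A list of 37 other complement genes was read beside them, of which 36 were in the files and 11 had enough counts to be tested. For reload over HU, 1 of the 11 passed as higher and 1 as lower, against 2.07% and 2.39% of 8956 genes. The number of genes past the test changed when 1 library was left out, as given above. Cd93, a membrane protein first described as a C1q receptor, had a log2 fold change of 1.58 ± 0.24 (SE, edgeR adjusted p = 0.0304). Fcna, ficolin A, an initiator of the lectin pathway, had one of -2.76 ± 0.51 (edgeR adjusted p = 0.0423). For age, 0 of the 11 passed in edgeR. Cd93 had 166 and 186 CPM in old and young reload macrophages, against 64.4 and 55.0 CPM in old and young HU macrophages. Fcna had 68.3 and 48.6 CPM in old and young reload, against 251 and 531 CPM in old and young HU. The complement receptor gene Vsig4 had 19.4 and 13.4 CPM at reload against 72.2 and 141 CPM in HU, with a fold change of -2.75 ± 0.58 and an edgeR adjusted p of 0.0525. The share of resident type was lower at reload than in HU, as given above, and its part in these values was not tested.

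The partners of C1q in plasma were low in macrophages and highest in fibroblasts. C1ra and C1s1, which encode the proteases C1r and C1s, had medians of 369 and 401 CPM in fibroblasts, and 0.79 to 5.82 and 0.00 to 0.90 CPM in macrophages. Serping1, which encodes the C1 inhibitor, had a median of 3943 CPM in fibroblasts and 0.00 to 4.505 CPM in macrophages. Itgb2 and Itgam, the chains of complement receptor 3, had the highest UMI counts of the list, with 288 to 413 CPM and 110 to 128 CPM in control macrophages. C1qbp, a mitochondrial protein named for C1q binding, was among the 6 with most UMIs and had a fold change of -0.84 ± 0.21 for reload over HU (adjusted p = 0.0701). Vsig4, C1ra, C1s1 and Serping1 were named after their values were seen.

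Genes whose levels were most like those of each member were sought over 42 sums of a class in a library, among 7946 genes, as a description. C1qa was most like C1qc (Pearson r = 0.96), C1qb (0.95) and Mrc1 (0.94), C1qb was next most like F13a1 (0.92), and C1qc like Folr2 (0.94). C4b was most like Folr2 (0.83), C1qc (0.82) and C1qb (0.78). C3 was most like Mgst1 (0.86), Thbs1 (0.83) and Prdx5 (0.81), and Cfb like Vcan (0.81), Gab1 (0.80) and Lamp1 (0.77). Cfp was most like Alox5ap (0.95), Clec4a2 (0.93) and Spi1 (0.92), C3ar1 like C1qc (0.93), C1qa (0.90) and Mrc1 (0.87), and C5ar1 like Slc11a1 (0.92), Ptafr (0.91) and Cd300ld (0.91). The sums share libraries and their depth, so they are not independent.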

How the data were processed

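Cells from 6 pools of mouse soleus were profiled with 10x Genomics libraries, 1 pool for each age and treatment. Cell Ranger (3.1.0), Seurat and mm10 are named in the submitters' processing notes. The authors deposited UMI counts per gene and barcode, with no normalization. The deposited counts were read as sparse matrices. Barcodes with at least 200 genes and at most 10% mitochondrial UMIs were kept, and 300 doublets marked by Scrublet in scanpy (1.11.5) were removed.

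Classes were gated on marker genes with no complement gene among them, and UMIs were summed per class and library. CPM, exact Poisson intervals and exact conditional intervals of ratios were computed with scipy (1.17.1) in Python (3.11.15). Classes or subsets with under 20 cells gave no value. Macrophage sums were tested with edgeR (4.0.16) in R (4.3.3), quasi-likelihood, with treatment and age as terms and Benjamini-Hochberg adjustment, and with DESeq2 (1.42.0) as an alternative. The edgeR step was tested on simulated data. Other alternatives were the filter on low counts, scaling, leaving out each library, the gates, the mitochondrial limit, doublets, thinning and the macrophage subset.

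Named genes were the 9 members, other complement genes that passed the test or had the most UMIs, and the 3 genes most like each member. Members and lists were chosen with earlier results of these data known. Control libraries came from another sequencing run, and the number that opens the titles differs between treatments. The intervals cover counting error only. Values of some genes of the marker and complement lists are not reported here.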

Additional observations from a re-analysis of the deposited data

Results flagged for a closer look

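Several old over young ratios in macrophages pointed in opposite directions between treatments, with each 95% counting interval clear of 0. The log2 ratio of C1qa was 0.34 in control, -1.20 in HU and -0.13 in reload. That of C1qb was 0.24 in control, -0.79 in HU and -0.11 in reload, and that of C1qc 0.43, -0.97 and 0.031 in the same order. The receptor C5ar1 gave 0.49, -0.64 and -0.068. Scaled by cells, the control ratios were -0.18 for C1qa, -0.28 for C1qb, -0.09 for C1qc and -0.03 for C5ar1, the same direction as in HU, and with monocytes added they were -0.66, -0.75, -0.57 and -0.11. The reload over HU ratio also differed in sign between ages, at 0.37 in old and -0.70 in young for C1qa, and at 0.20 in old and -0.47 in young for C1qb. Scaled by cells, the young ratios were 0.30 for C1qa and 0.54 for C1qb, so the difference in sign between ages was gone. The differences between treatments or ages were not tested, since each group is 1 library.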

How the results depend on the processing

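Each group held 1 library, so no fit could separate biological spread from library. The fit of age has treatment as a term, so it compares old with young within a treatment. For age, the count of genes past the threshold was 0 in the fit as given, 6 with DESeq2, 85 with no filter on low counts and 0 to 5 when 1 library was left out. For reload over HU it was 399 as given, 1955 with no filter, 65 with monocytes added, 113 in the resident type and 0 to 1842 when 1 library was left out. The number of members past 1.5-fold for old over young in HU was 4, and 2 when scaled as mean UMIs per cell. In control it was 2, and 6 with monocytes added, 5 in the resident type and 0 in the recruited type. At reload it was 2, and 1 in the resident type. Of the 45 log2 ratios of members, 24 changed sign under at least 1 alternative, 20 of the 24 under 1.5-fold and 4 of the 21 at 1.5-fold or more. These 4 were C1qa for reload over HU in young per cell (0.30), C3 for old over young in control in the resident type (-0.13), C4b for reload over HU in old in the resident (0.17) and recruited type (1.56), and Cfb for reload over HU in old after thinning (-0.0066). Among the others were C1qb for reload over HU in young per cell (0.54), C1qc for reload over HU in old in the recruited type (0.59) and C5ar1 for reload over HU in young in the resident type (-0.11). C3 in macrophages minus other cells was 0.69 with monocytes added (exact test, adjusted p = 0.1875), and Cfb was 1.14 (exact test, adjusted p = 0.0703). Removing shared barcodes was an alternative chosen after the data were seen. The recruited type was not run for the fits or for pairs with young HU, which held 11 such cells. The cause of these changes was not tested.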
